A study of Rattus norvegicus with 4 samples.

Results

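The slow-fibre sarcomere genes described here are 8 genes for the slow isoforms of contractile proteins, read on 4 one-colour arrays of rat soleus: Myh7, Myh7b, Myl2, Myl3, Tnni1, Tnnt1, Tnnc1 and Tpm3. They were taken as a named list, matched to the arrays through their transcript accessions, and they are covered by 10 probes printed as 18 spots, out of 26633 genes and transcripts on the array. The 4 groups of male rats were regenerated overloaded muscle (aged 18 weeks), overloaded muscle (aged 18 weeks, labelled as hypertrophied), regenerated muscle (aged 16 weeks, collected 8 weeks after an injection that the labels call CTX without expanding it) and normal muscle (aged 16 weeks). Each group is 1 array carrying equal amounts of RNA from 6 muscles, so n = 1, no difference has a replicate check and no test between groups was possible. The titles end in L for both regenerated groups and in R for the others, letters that are not explained, and groups of 1 age may come from the same rats, which is not stated. The labels give neither the overloading method, nor its duration, nor the time since injection of the regenerated overloaded muscle. The arrays shared 1 slide, with both overloaded groups in row 2 and the others in row 1, so that overload, age and slide row cannot be told apart. Nor can regeneration be told apart from the title letter, and each array had its own slide column.

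The sarcomere is the repeating contractile unit of a muscle fibre, in which myosin thick filaments pull on actin thin filaments. Most of its proteins exist as slow and fast isoforms made from separate genes, and the soleus, a postural muscle, is built mainly of slow fibres. Myosin heavy chain hydrolyses ATP and produces the movement, its essential and regulatory light chains stiffen and tune the lever arm, and the troponin complex with tropomyosin switches the thin filament on when calcium binds. Fibres can exchange isoforms with load, nerve activity and injury.

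Slow myosin genes also carry microRNAs in their introns, which in mice repress factors that oppose the slow programme. Their mature sequences (RefSeq, GRCr8) are shown because Myh7b, the host of the first, is the member whose signal differed most between arrays. miR-499-5p lies inside Myh7b at chr3:164570616-164570636 on the plus strand, and miR-208b-3p inside Myh7 at chr15:32421648-32421665 on the minus strand. Capitals mark the seed, bases 2 to 8, of which the first 6 bases are the same in both. Neither microRNA was measured on these arrays.
rno-miR-499-5p: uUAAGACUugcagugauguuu
rno-miR-208b-3p: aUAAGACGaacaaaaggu

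RefSeq windows of 250 bases upstream of the start were at hand for 6 of the 8 genes and are shown for 3: Myh7b as the dim myosin, Tnnt1 as the gene of the brightest probe, and Myl3 as the one with the most motif types. Capitals mark the E-box CANNTG, the MCAT element CATTCC on either strand, TATAAA on either strand, and the MEF2 and CArG elements, searched on both strands. No marked motif overlaps another.
Myh7b, chr3:164558090-164558339, plus strand: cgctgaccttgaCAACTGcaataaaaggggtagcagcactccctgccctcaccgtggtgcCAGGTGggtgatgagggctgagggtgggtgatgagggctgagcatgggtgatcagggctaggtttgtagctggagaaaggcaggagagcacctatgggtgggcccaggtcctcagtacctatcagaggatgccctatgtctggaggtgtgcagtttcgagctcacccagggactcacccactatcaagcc
Tnnt1, chr1:78348785-78349034, plus strand: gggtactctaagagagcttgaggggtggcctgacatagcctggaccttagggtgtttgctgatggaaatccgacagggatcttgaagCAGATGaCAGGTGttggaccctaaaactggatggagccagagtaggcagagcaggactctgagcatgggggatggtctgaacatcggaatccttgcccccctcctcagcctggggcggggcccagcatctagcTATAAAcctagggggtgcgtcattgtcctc
Myl3, chr8:119616844-119617093, plus strand: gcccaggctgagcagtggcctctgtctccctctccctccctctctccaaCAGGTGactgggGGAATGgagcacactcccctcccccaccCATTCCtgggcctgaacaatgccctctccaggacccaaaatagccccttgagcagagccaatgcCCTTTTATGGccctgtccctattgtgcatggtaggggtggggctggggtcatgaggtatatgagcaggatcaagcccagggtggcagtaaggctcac

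The Myl3 window held 1 E-box, 2 MCAT elements and 1 CArG element, the Tnnt1 window 2 E-boxes and 1 TATAAA, and the Myh7b window 2 E-boxes. Of the windows not printed, that of Myh7 held 3 E-boxes and that of Tnni1 held 2, and 1 of the 3 windows of Tpm3 held 1. Among 33469 windows of all genes, 65.5% held an E-box, 12.1% an MCAT element, 12.9% TATAAA, 1.68% a MEF2 element and 1.5% a CArG element. Such a match describes letters and does not show that a factor binds there.

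All 18 spots were well above background on all 4 arrays, none had an outlier flag and none was saturated. Signals are given first as processed intensity units without scaling between arrays, and then as log2 differences after each array was divided by the 75th percentile of its probe spots. That percentile was 790 units in regenerated overloaded, 817 in overloaded, 740 in regenerated and 662 in normal muscle, and 67.9%, 70.4%, 68.8% and 60.2% of spots were well above background in the same order. A probe's level is not set against another probe's, since probes differ in how well they hybridise. Errors are technical standard errors (SE) from the spread of spot-by-spot differences of probes with like signal, and cover no difference between muscles.

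Myh7, the slow myosin heavy chain, had a mean signal of 225104 units in regenerated overloaded, 257062 in overloaded, 250486 in regenerated and 248224 in normal muscle. The regenerated overloaded array was the lowest, and the other 3 lay close together. Myl2, the slow regulatory light chain, had 148147 units in regenerated overloaded, 165557 in overloaded, 156011 in regenerated and 172231 in normal muscle. Myl3, the slow essential light chain, had 196475, 217990, 210473 and 221878 units in the same order of groups. Both light chains were thus lowest in regenerated overloaded and highest in normal muscle.

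The troponin subunits followed a narrower range. Tnnc1, the calcium-binding subunit of slow and cardiac muscle, had 237214 units in regenerated overloaded, 245701 in overloaded, 233716 in regenerated and 247079 in normal muscle. Tnni1, the inhibitory subunit of slow muscle, had 191599 units in regenerated overloaded, 214085 in overloaded, 202687 in regenerated and 205835 in normal muscle. Tnnt1, the slow subunit that anchors troponin to tropomyosin, had 353766, 358324, 336045 and 355789 units in the same order of groups. Its 2 spots differed from each other by 1.34-fold to 1.37-fold on every array, more than any difference of that gene between arrays, and its second probe (1 spot) had 206466, 213530, 211074 and 211003 units. No array was lowest for all 3 subunits: regenerated overloaded was lowest for Tnni1, and regenerated for Tnnc1 and for the first probe of Tnnt1.

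These 6 genes read over 100000 units on every array, and the brightest spot, of Tnnt1, reached 419144 units, 53.9% of the saturation value of 777985 in the file headers. The brightest spike-in probe, a control RNA added in a known amount, gave between 33571 and 35079 units, so the spike-ins do not reach the signal range of these 6 genes, and linearity there was not tested. Over the 119 probes above 100000 units, members included, the median unscaled log2 differences were -0.04, 0.03, 0.03 and -0.01 for regenerated minus normal, overloaded minus normal, regenerated overloaded minus regenerated and regenerated overloaded minus overloaded muscle. In each comparison the unscaled differences of all 6 bright members lay between the 5th and 95th percentiles of these 119 probes, which were -0.22 and 0.06 in regenerated overloaded minus overloaded muscle, where Myh7 had -0.19.

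The remaining 2 genes read far lower on their probes. Myh7b, a gene of the slow-type myosin heavy chains, had 1522 units in regenerated overloaded, 2171 in overloaded, 2322 in regenerated and 2599 in normal muscle, from 1 spot. The normal array was the highest and the regenerated overloaded array the lowest, with the overloaded and regenerated arrays between them. Tpm3, the gene of the slow alpha-tropomyosin, had 4109 units in regenerated overloaded, 4645 in overloaded, 4010 in regenerated and 3997 in normal muscle on its first probe. Its second, dimmer probe, placed on another transcript of the gene, had 111, 102, 66.0 and 66.2 units, higher in both overloaded groups. Which isoform each Tpm3 probe reads was not resolved, so neither is taken as specific to the slow one.

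**Figure D1:**
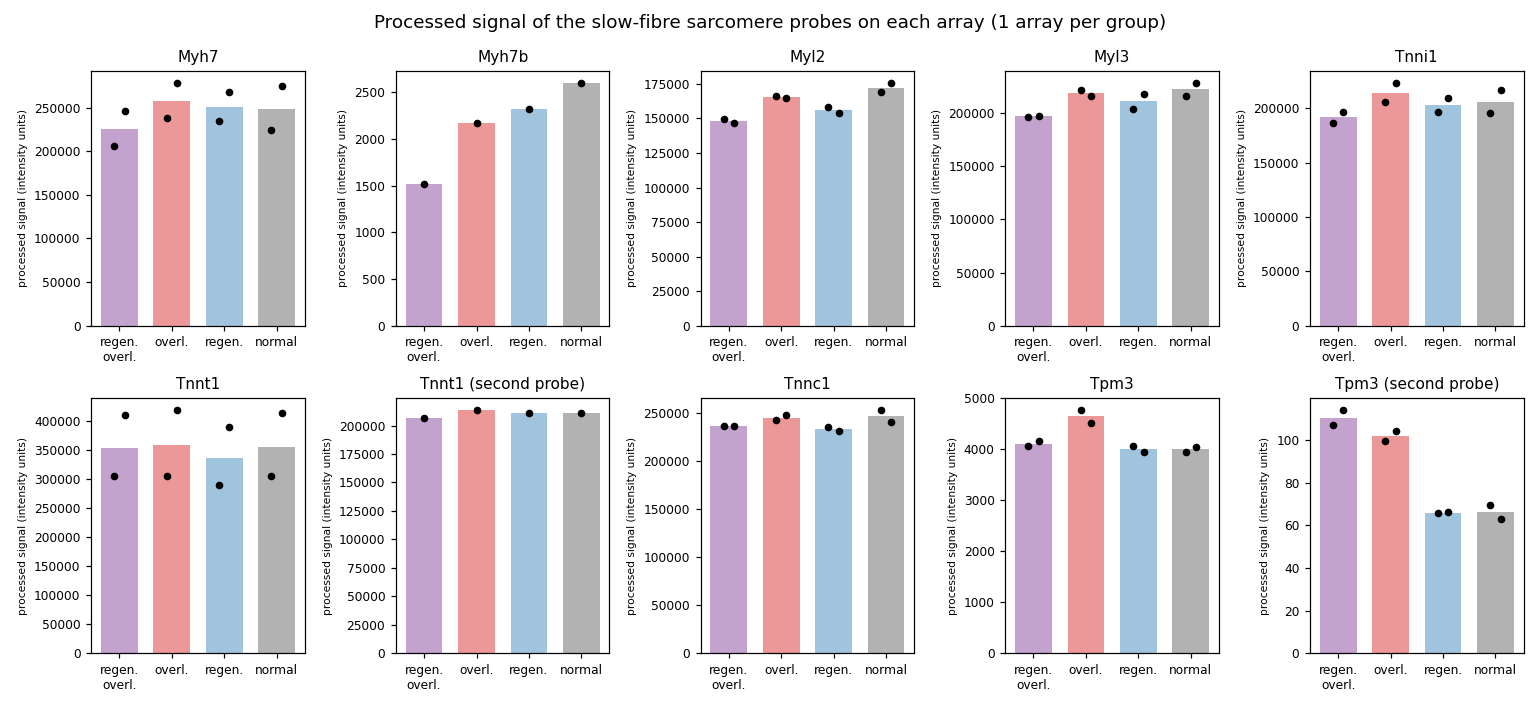
Processed signal in intensity units (vertical axes, each from 0 and on its own scale) of the 10 probes of the 8 genes in regenerated overloaded, overloaded, regenerated and normal muscle. Bars are the mean of a probe's spots and points the spots; Myh7b and the second Tpm3 probe differ visibly between arrays, while the means of the 6 bright genes, read on their first probes, stay between 148147 and 358324 units.

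Regenerated was compared with normal muscle to ask what differed at 8 weeks after injection. No member differed 2-fold or more (0 of 8), where 1.91% of the 16892 measured genes and transcripts did. Without scaling, the 6 bright genes stood in regenerated muscle at 90.6% to 101% of normal muscle. After scaling, all 8 members had negative log2 differences, from -0.32 (Myh7b, technical SE 0.050) to -0.15 (Myh7, technical SE 0.031), with a median of -0.24 beside -0.11 over all genes above background on both arrays. Without scaling the members' median was -0.08 and with spike-ins as the scale -0.12, and under cyclic loess, a scaling by signal level, it turned to 0.03. The members' median minus that of all genes was -0.13 after scaling to the 75th percentile. It was 0.05 under quantile normalization, 0.08 under cyclic loess and 0.03 with normexp background correction. The 75th percentiles themselves differ by 0.16 on the log2 scale. Over the 8 scalings 5 of the 6 bright genes changed sign, while Myl2 stayed between -0.39 and -0.04. Whether the members' median was lower in regenerated muscle thus depended on the scaling. Where a slow gene reads lower in mixed tissue RNA, fewer slow fibres and less slow-gene RNA per fibre cannot be told apart. The part of RNA from other cells, whose markers are given below, was not tested.

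Overloaded was compared with normal muscle for overload outside regenerated muscle. Again 0 of 8 members passed 2-fold, where 3.16% of 17288 genes and transcripts did. Without scaling, the 6 bright genes stood in overloaded muscle at 96.1% to 104% of normal muscle, and 4 of 8 members were lower. After scaling by percentiles that differed by 0.30, all 8 were negative, from -0.56 (Myh7b, technical SE 0.053) to -0.09 (Tpm3, technical SE 0.034), with a median of -0.30 beside -0.12 over all genes. Tpm3 turned to 0.13 with spike-ins and to 0.12 with the mean over its probes, its second probe being at 0.32 (technical SE 0.19). The median was 0.00 without scaling, -0.09 with spike-ins and 0.08 under cyclic loess.

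Regenerated overloaded was compared with regenerated muscle for overload in muscle that had regenerated. Of the 8 members 0 passed 2-fold, where 1.99% of 17187 genes and transcripts did, and 1, Myh7b, was lower by 1.5-fold or more, where 2.47% were. Myh7b was 1.63-fold lower in regenerated overloaded muscle (log2 difference -0.70, technical SE 0.057), below the 5th percentile of all genes (-0.44). The 6 bright genes stood in regenerated overloaded muscle at 89.9% to 105% of regenerated muscle without scaling. The members' scaled median was -0.17 beside -0.02 over all genes, and between -0.23 and -0.05 over the 8 scalings. The second Tpm3 probe went the other way, with 0.65 (technical SE 0.15) against -0.06 (technical SE 0.039) on the first.

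Regenerated overloaded was compared with overloaded muscle to ask what differed between overloaded muscles with and without earlier regeneration. Of the 8 members 0 passed 2-fold, where 1.69% of 17475 genes and transcripts did. The 6 bright genes stood in regenerated overloaded muscle at 87.6% to 98.7% of overloaded muscle without scaling, and all 8 members were lower. After scaling 7 were negative, Tnnt1 being at 0.03 (technical SE 0.027), and the median was -0.11 beside -0.01 over all genes, between -0.16 and -0.08 over the 8 scalings. Myh7b was at -0.46 (technical SE 0.047), below the 5th percentile of all genes (-0.36), and Myh7 at -0.14 (technical SE 0.027).

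**Figure D2:**
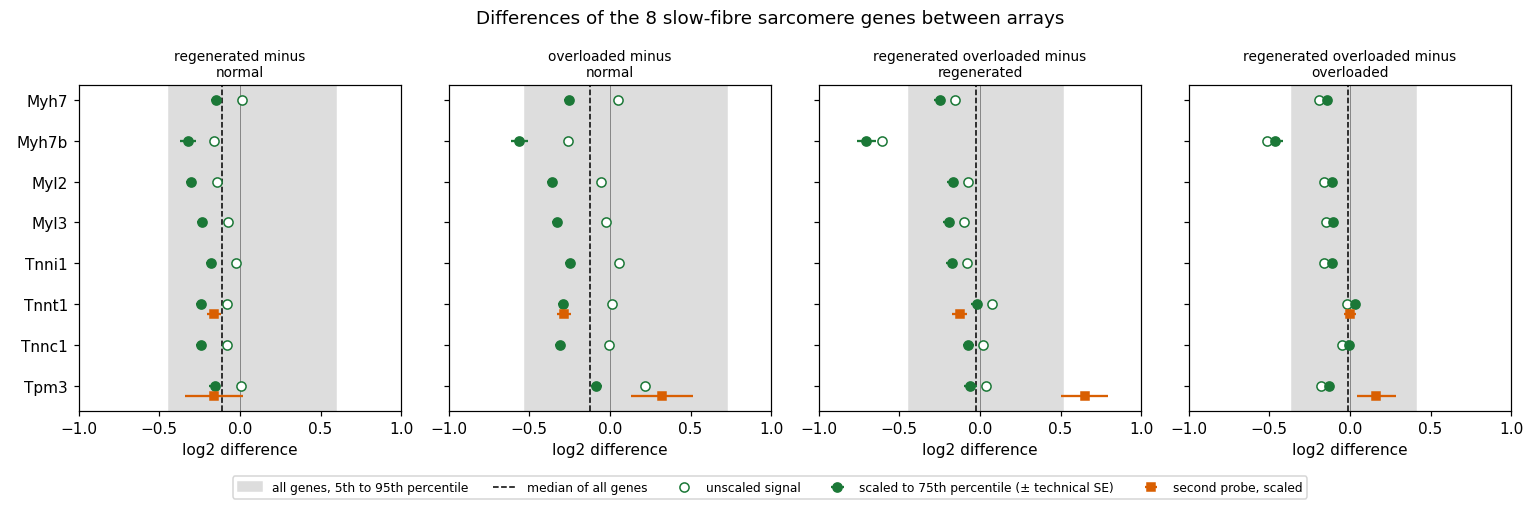
Log2 differences (horizontal axes) of the 8 genes (rows) in the 4 comparisons (panels): filled circles after scaling to the 75th percentile with the technical SE, open circles without scaling, orange squares the second probes of Tnnt1 and Tpm3. The grey band runs from the 5th to the 95th percentile of all genes and the dashed line is their median; Myh7b leaves the band in 3 panels, and the second Tpm3 probe at 0.65 in 1.

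Myh7b was negative in all 4 comparisons under each of the 8 scalings, by amounts that moved with the scaling. Over the 8 scalings its log2 difference lay between -0.41 and -0.16 for regenerated minus normal, between -0.68 and -0.26 for overloaded minus normal, between -0.76 and -0.58 for regenerated overloaded minus regenerated, and between -0.51 and -0.43 for regenerated overloaded minus overloaded muscle. Relative to the members' own median it was lower by 0.08 to 0.23, 0.26 to 0.50, 0.53 to 0.62 and 0.34 to 0.36 in the same comparisons. In regenerated minus normal muscle its scaled distance of -0.08 was about that of other members, such as Myl2 at -0.06 and Myh7 at 0.09. It is read from 1 spot, so its spread between spots is that of other probes of like signal. The 4 comparisons share arrays (regenerated minus normal and overloaded minus normal both use the normal array), so that the signs are not independent of each other.

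**Figure D3:**
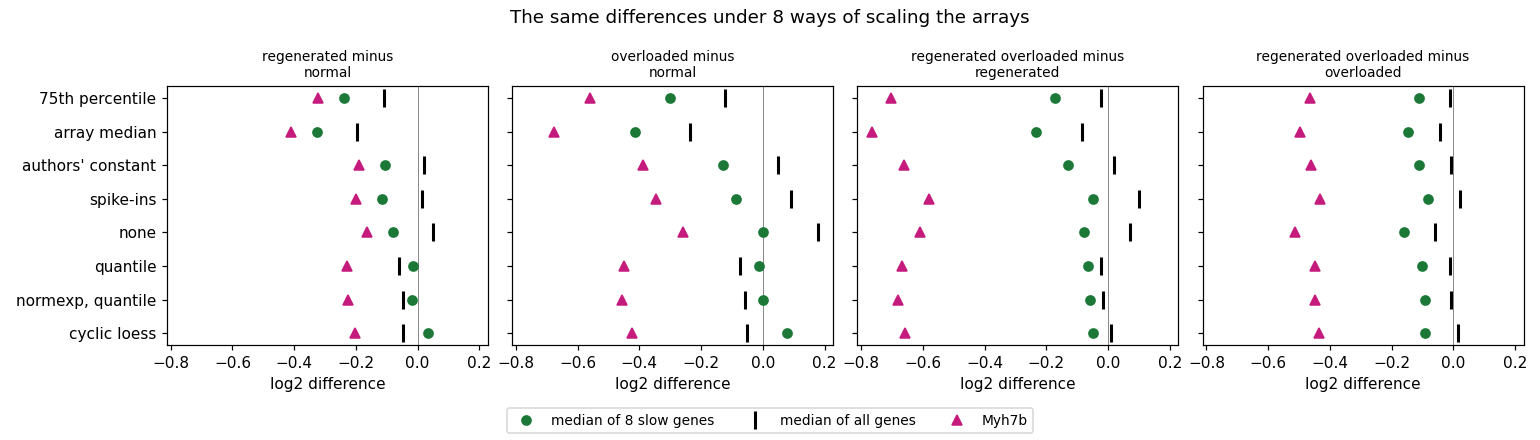
Median log2 difference of the 8 members (circles), median of all genes (bars) and Myh7b (triangles) on the horizontal axes, under 8 ways of scaling the arrays (rows), in the 4 comparisons (panels). The members' median lies on either side of 0 in the 2 comparisons with normal muscle, reaching 0.08 under cyclic loess, while Myh7b is negative in every row and panel.

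The difference of differences sets overload in regenerated muscle (regenerated overloaded minus regenerated) against overload in normal muscle (overloaded minus normal). It was between -0.14 (Myh7b, technical SE 0.077) and 0.27 (Tnnt1, technical SE 0.046), and 0 of 8 members reached 2-fold, where 0.757% of 14392 genes did. Its median was 0.10 for the members beside 0.07 over all genes, and its sign depended on the scaling, with -0.10 under cyclic loess and -0.11 without scaling.

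Of the 8 slow genes 6 were then set against the fast isoform gene of the same protein, through the difference of their 2 log2 differences. No constant factor of an array can change that value. Myl2 was left out because its fast partner, Mylpf, was not matched on the array, and Myh7b was given no partner. In regenerated minus normal muscle the slow gene stood higher relative to its fast partner in 5 of 6 pairs, with a median of 0.73, and in overloaded minus normal muscle also in 5 of 6, with a median of 0.85. For myosin heavy chain, Myh7 minus Myh2 was 1.56 (technical SE 0.047) in regenerated minus normal and 2.52 (technical SE 0.048) in overloaded minus normal muscle. Myh2, the fast 2A heavy chain, had 3052 units in regenerated overloaded, 1253 in overloaded, 2384 in regenerated and 6962 in normal muscle. The pair thus moved through the fast gene while the signal of Myh7 stayed near its level, above the spike-in range, where linearity was not tested. The direction depends on which fast heavy chain is set against Myh7, a check added after the data had been seen. Against Myh1, the 2X heavy chain, the value was -0.51 in regenerated minus normal and 1.47 in overloaded minus normal muscle, and against Myh4, the 2B heavy chain, it was -1.30 and -1.65. Myh4 read 200 units in regenerated overloaded, 531 in overloaded, 408 in regenerated and 164 in normal muscle.

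Troponin I and troponin T showed the order of Myh7 minus Myh2, larger in overloaded minus normal than in regenerated minus normal muscle. Tnni1 minus Tnni2 was 0.75 in regenerated minus normal and 2.06 in overloaded minus normal muscle, Tnni2, the fast inhibitory subunit, having 16434 units in regenerated overloaded, 8892 in overloaded, 20953 in regenerated and 35768 in normal muscle. Tnnt1 minus Tnnt3 was 0.71 in regenerated minus normal and 1.19 in overloaded minus normal muscle, and Tnnc1 minus Tnnc2 was 0.29 and 0.22. The essential light chains ran the other way, Myl3 minus Myl1 being -0.13 and -0.22.

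In regenerated overloaded minus regenerated muscle the slow gene stood higher relative to the fast one in 2 of 6 pairs (median -0.18), with Myh7 minus Myh2 at -0.51 and Tnni1 minus Tnni2 at 0.27. In regenerated overloaded minus overloaded muscle it did so in 1 of 6 pairs (median -0.54), with Myh7 minus Myh2 at -1.48, Tnni1 minus Tnni2 at -1.05, Tnnt1 minus Tnnt3 at -0.29 and Tnnc1 minus Tnnc2 at 0.02. Tpm3 minus Tpm1 was 0.91, 0.51, -1.18 and -0.78 in the 4 comparisons as ordered above. That pair rests on the choice of probe: with the dimmest probe of each gene it was -0.49, -0.03, 0.21 and -0.25, so no direction is drawn from it. Without it the slow gene stood higher in 4 of 5, 4 of 5, 2 of 5 and 1 of 5 pairs in the 4 comparisons. For these 5 pairs the mean over a gene's probes kept the sign in all 4 comparisons, and over the 8 scalings 1 value changed sign, Tnnc1 minus Tnnc2 in regenerated overloaded minus regenerated muscle (between -0.05 and 0.05).

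**Figure D4:**
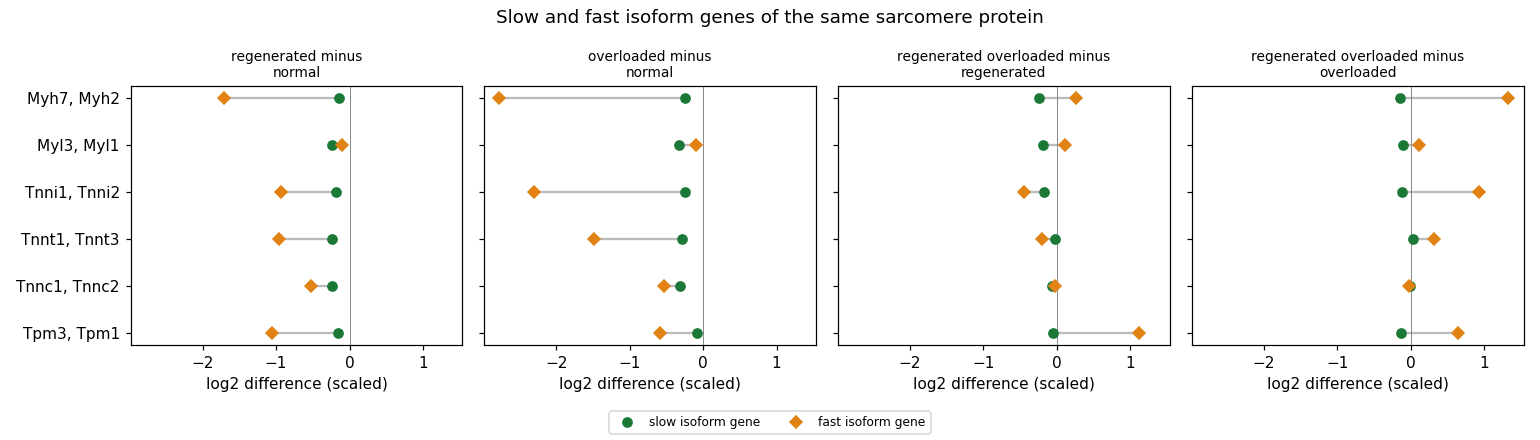
Scaled log2 differences (horizontal axes) of the slow gene (circles) and the fast gene (diamonds) of 6 sarcomere proteins (rows) in the 4 comparisons (panels). The slow genes lie between -0.33 and 0.03 throughout, while Myh2 reaches -2.78 and Tnni2 -2.31 in overloaded minus normal muscle.

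The wider fast list had 10 members measured. In regenerated minus normal muscle, where 1.91% of all genes and transcripts passed 2-fold, 1 was higher, Myh4 (1.15), and 2 were lower, Myh2 (-1.71) and Tpm1 (-1.06), with a list median of -0.54. The Tpm1 call rests on its brighter probe, since the mean over its probes was -0.37 and the dimmer probe 0.33, and ended under 6 other scalings or corrections (-0.94 to -0.88). With normexp background correction Myh4 was at 0.84 here and at -0.85 in regenerated overloaded minus regenerated muscle, both under 2-fold. In overloaded minus normal muscle (3.16% of all) 2 were higher, Actn3, the fast alpha-actinin (1.99), and Myh4 (1.39), and 4 were lower, Myh2 (-2.78), Tnni2 (-2.31), Myh1 (-1.72), and Tnnt3 (-1.49), with a median of -0.67. In regenerated overloaded minus regenerated muscle (1.99% of all) Tpm1 was higher (1.12), though under 2-fold with the mean over its probes (0.78) or the dimmer probe (0.44), and Myh4 lower (-1.12). In regenerated overloaded minus overloaded muscle (1.69% of all) Myh1 (2.30) and Myh2 (1.33) were higher and Myh4 (-1.36) and Actn3 (-1.33) lower.

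Of 9 measured companions of slow fibres, proteins of the slow calcium store, Z-disc and thick filament, 1 passed 2-fold. Over all genes and transcripts 1.91%, 3.16%, 1.99% and 1.69% passed in the 4 comparisons as ordered above. Pln, phospholamban, which restrains the slow calcium pump, had 1012 units in regenerated overloaded, 1221 in overloaded, 1081 in regenerated and 2135 in normal muscle. Its log2 difference was -1.14 in regenerated minus normal and -1.11 in overloaded minus normal muscle, against -0.19 in regenerated overloaded minus regenerated and -0.22 in regenerated overloaded minus overloaded muscle. The normal array alone was high. Both calls ended with normexp (-0.96 and -0.95) and without scaling (-0.98 and -0.81), the call for overloaded minus normal muscle also with the authors' constant (-0.94) and spike-ins (-0.89). The companions' medians were -0.22, -0.43, -0.23 and -0.10 in the 4 comparisons, beside the slow members' -0.24, -0.30, -0.17 and -0.11.

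Of 11 measured sarcomere genes shared by all fibre types, 0 passed 2-fold in any comparison (1.91%, 3.16%, 1.99% and 1.69% of all genes and transcripts). Their medians were -0.20, -0.36, -0.25 and -0.04, each within 0.1 of that of the slow members. Acta1, skeletal actin, was lowest in regenerated minus normal muscle (-0.35) and Tmod1, which caps thin filaments, highest (0.05). Flnc, a filamin of the Z-disc, was lowest in overloaded minus normal (-0.62) and in regenerated overloaded minus regenerated muscle (-0.67), and Capza1, an actin-capping subunit, highest in both (0.13 and 0.33). Ldb3, a Z-disc protein, was lowest in regenerated overloaded minus overloaded muscle (-0.39) and Tmod1 highest (0.21).

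Among 7 measured cardiac and developmental sarcomere genes, 3 were higher 2-fold or more in overloaded minus normal muscle, where 3.16% of all genes and transcripts passed: Myh3, the embryonic heavy chain (1.62), Tnni3, cardiac troponin I (1.27), and Tnnt2, cardiac troponin T, which immature skeletal fibres also make (1.21). Tnni3 was at 0.87 with normexp. The other 4 genes were lower in overloaded minus normal muscle, from -0.69 (Myh8) to -0.19 (Actc1). The list medians were -0.11, -0.19, -0.14 and -0.04 in the 4 comparisons. In regenerated overloaded minus regenerated muscle (1.99% of all) Tnnt2 (1.42) and Myh3 (1.32) were higher and Tnni3 was at 0.88. Of the 7 genes 0 passed in regenerated minus normal (1.91% of all) or regenerated overloaded minus overloaded muscle (1.69% of all). Myh3 had 29154 units in regenerated overloaded, 25324 in overloaded, 10970 in regenerated and 6668 in normal muscle. The probe named Myh6, the cardiac alpha heavy chain, gave 278432, 295180, 287436 and 277164 units, and Myl4, the atrial and embryonic light chain, 101105, 117369, 113391 and 126516 units. Of 5 cardiac fibre markers, Myh6, Tnni3 and Ryr2 were above background on every array, and the atrial genes Nppa and Myl7 on none. The 5 summed to a scaled signal of 354 in regenerated overloaded, 363 in overloaded, 389 in regenerated and 420 in normal muscle. That sum is nearly all the Myh6 probe. Tnni3 ran opposite to it, with 144 units in normal and 550 in regenerated overloaded muscle, while Ryr2 had 506 and 467. Myh6 and Myh7 are near-identical genes, so neither probe is taken as specific to 1 of them.

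Of up to 13 measured regulators of slow-fibre genes, 1 passed 2-fold, where 1.91%, 3.16%, 1.99% and 1.69% of all genes and transcripts did in the 4 comparisons. The list medians were -0.15, -0.39, -0.43 and -0.30, beside the slow members' -0.24, -0.30, -0.17 and -0.11. Ppargc1a, a coactivator of oxidative and slow-fibre genes, had 44.0 units in regenerated overloaded, 55.9 in overloaded, 89.4 in regenerated and 110 in normal muscle. It was lower in overloaded minus normal (-1.28, technical SE 0.19) and in regenerated overloaded minus regenerated muscle (-1.12, technical SE 0.15). These errors are larger than those of the members because the probe is dim. Ppargc1a stood at -0.46 and -0.30 in regenerated minus normal and in regenerated overloaded minus overloaded muscle. Both overloaded arrays were below both others. Both calls ended with normexp (-0.82 and -0.54), that for overloaded minus normal muscle also without scaling (-0.98) and that for regenerated overloaded minus regenerated muscle with spike-ins (-0.99).

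**Figure D5:**
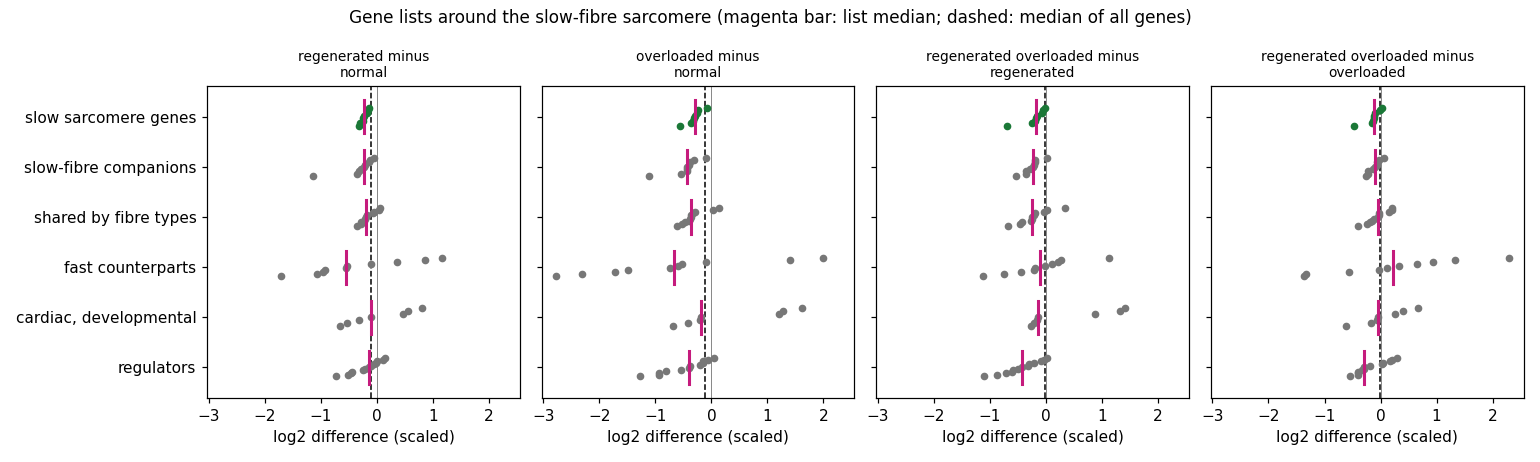
Scaled log2 differences (horizontal axes) of each measured gene (points) of the slow members and the 5 other lists (rows) in the 4 comparisons (panels), with the list median as a magenta bar and the median of all genes as a dashed line. The slow members lie between -0.70 and 0.03, a narrower range than the fast counterparts, which run between -2.78 and 2.30. Of the slow members 6 read above the spike-in range, where linearity was not tested.

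The tissue label was checked with marker genes. All 6 muscle fibre markers were well above background on every array, and their summed scaled signal (each gene over its array's 75th percentile) was 1147 in regenerated overloaded, 1272 in overloaded, 1301 in regenerated and 1631 in normal muscle. Of these markers 2, Acta1 and Des, also belong to the shared sarcomere genes above, and Des to the smooth muscle markers. The 6 fibroblast markers summed to 208, 165, 121 and 59.6 in the same order, with Thy1 not above background in normal muscle, and the 6 macrophage markers, all above background on every array, to 50.1, 45.9, 43.2 and 27.5. The 6 smooth muscle markers summed to 71.4, 62.5, 70.5 and 78.3 (Cnn1 above background in overloaded muscle alone). Most of that sum is Des, with 47821 units in normal muscle beside 1536 for Tagln, so it does not follow the other markers. In regenerated minus normal and overloaded minus normal muscle Rgs5 was at 0.19 and 0.29 and Acta2 at 0.09 and 0.15. Myh11 was at 0.04 and -0.13 and Tagln at -0.005 and -0.02. The 5 endothelial markers summed to 12.6, 12.8, 12.2 and 11.8 (Tek below in normal muscle), and the 4 adipocyte ones on the array to 21.8, 15.3, 23.0 and 10.6 (Lep below on every array). Most of the adipocyte sum is Cfd, with 6197 units in normal muscle beside 805 for Adipoq and 43.0 for Cidec. In overloaded minus normal muscle Cfd was at 0.61, while Adipoq was at -0.28 and Cidec at -0.83. The fibroblast and macrophage sums thus ran opposite to the members' scaled medians, and their part in these values was not tested.

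The 5 other genes whose pattern over the 4 arrays lay nearest to the members' median pattern were Tsn (largest gap 0.018 on the log2 scale), Imp4 (0.020), Wdr83 (0.021), Srp72 (0.021) and Chd1 (0.022). The pattern itself, each array minus the mean of 4, was -0.17 in regenerated overloaded, -0.08 in overloaded, 0.00 in regenerated and 0.21 in normal muscle. It is a common one: 16.1% of 9025 genes lay within 0.1 of it on every array. Among the members themselves Tnni1 lay nearest to it (0.028) and Myh7b farthest (0.38).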

How the data were processed

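The deposited scanner files give each spot's processed signal as an intensity, background-subtracted and spatially detrended, and other columns of 0 or 1 flags (saturated, outlying, well above background), made with Feature Extraction 11.5.1.1 under protocol GE1_1105_Oct12 per the file headers. The submitters' processing notes give the version as 10.10.1.1. The authors' series table is the same intensity multiplied by a constant for each array: 2.02 for regenerated overloaded, 1.95 for overloaded, 2.10 for regenerated and 2.14 for normal muscle.

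Outlier spots were dropped. The log2 of the 75th percentile of an array was subtracted from its log2 signals, replicate spots were averaged, and the brightest probe stood for a gene. Genes entered a comparison if that probe was well above background on either array, and 2-fold or more counted as called. Accessions named 18643 of 30367 probes through RefSeq, as 15637 symbols. The files are on rn4 and the printed sequences on GRCr8. Technical SEs pool spot-by-spot differences in 20 signal bins. Named from the other lists were members past 2-fold, else the highest and lowest, and the 5 genes of nearest pattern. The members and lists were chosen with earlier results of these data known. The code was tested on simulated data. R 4.3.3, limma 3.58.1, Python 3.11.15, numpy 2.4.6 and pandas 2.3.3 were used.

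The alternatives were other scalings, normexp background correction (offset 50) followed by quantile normalization, other probes or spots, other filters and a 1.5-fold limit. Scaling on spike-ins, medians without the 6 bright genes, and Myh1 or Myh4 as the partner of Myh7 were added after the data had been seen.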

Additional observations from a re-analysis of the deposited data

Results flagged for a closer look

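The difference of Myh7 minus Myh2 after overload had opposite signs in regenerated muscle (-0.51, regenerated overloaded minus regenerated) and in normal muscle (2.52, overloaded minus normal), a gap of -3.04 (technical SE 0.071). The signs were opposite under all 8 scalings, and with 1 array per group the difference was not tested. With the dimmest probes the 2 values were -0.17 and 2.85. With Myh4 as the fast heavy chain they were 0.88 and -1.65, opposite the other way round, and with Myh1 -0.46 and 1.47.

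The difference of Tpm3 minus Tpm1 also had opposite signs, -1.18 in regenerated and 0.51 in normal muscle, a gap of -1.69 (technical SE 0.073), and this difference was not tested either. With the dimmest probe of each gene the values were 0.21 and -0.03, so the direction follows the probe.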

How the results depend on the processing

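The 8 genes gave 0 calls at 2-fold in all 4 comparisons under every alternative run at that limit; at 1.5-fold 1 gene, Myh7b, was called in regenerated overloaded minus regenerated muscle. For regenerated minus normal, overloaded minus normal, regenerated overloaded minus regenerated and the difference of differences, the members' medians of -0.24, -0.30, -0.17 and 0.10 became -0.016, -0.011, -0.065 and -0.083 under quantile normalization, 0.033, 0.079, -0.050 and -0.10 under cyclic loess, -0.019, -0.00017, -0.059 and -0.092 with normexp, -0.078, 0.0011, -0.078 and -0.11 without scaling, and -0.12, -0.087, -0.049 and 0.011 with spike-ins. With the authors' constant, regenerated minus normal gave -0.11, overloaded minus normal -0.13 and the difference of differences -0.027; with the array median the first 2 gave -0.32 and -0.42. Without the 6 bright genes the medians of Myh7b and Tpm3 were -0.38 for regenerated overloaded minus regenerated and -0.30 for regenerated overloaded minus overloaded. Beyond the percentile or constant each scaling divides by, the cause was not tested. With the dimmest probe, Tpm1 in regenerated minus normal muscle turned to 0.33. The counts over all genes of 322, 546, 342 and 295 in the 4 comparisons were 116, 212, 102 and 56 with normexp, 190, 362, 142 and 74 with the dimmest probe, 187, 335, 181 and 122 without probes printed once, and 2209, 5698, 1460 and 1438 without the filter on dim probes; with genes above background on both arrays they were 196 for regenerated minus normal, 225 for regenerated overloaded minus regenerated and 143 for regenerated overloaded minus overloaded, and overloaded minus normal gave 1092 without scaling and 877 with spike-ins. No paired analysis was possible because each group has 1 array and the labels do not tie the R and L titles to rats, and the slide could not be fitted as a block with 1 array per group.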
